A study of Mus musculus with 12 samples.

Results

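The libraries described here are the 6 of 12 in the series that were made from mouse embryonic stem cells (ESCs) in uninduced conditions, without doxycycline. They comprise 3 samples of wild-type HATX3 ESCs, numbered 1, 2 and 3, and 1 sample each of the ΔCdk8 clones 8, 11 and 15. HATX3 is a mouse ESC line of haploid origin whose cells are now diploid. It carries Xist under a doxycycline-inducible promoter with the transactivator at Rosa26, so that all 6 samples share the transgenic system and none had been given doxycycline. The ΔCdk8 clones are independent clones of this line in which CRISPR/Cas9 with a pair of guide RNAs removed a stretch of exon 1 of Cdk8 with the start codon, and in 1 of them a small insertion was found. The wild-type samples are the polyclonal parental line, so a clone and a wild-type sample differ in cloning history as well as in Cdk8, and these cannot be told apart. The study sequenced the same clones and parental cells again after 48 h of Xist expression, and asked whether Xist can repress X-linked genes without Cdk8. The comparison of the uninduced groups asks which RNAs differ between the genotypes before Xist is switched on. It was made over all genes, and the genes described are those apart from wild type in every one of the 3 clones, outside chromosomes 3, 6 and 14, on which whole-chromosome shifts were seen.

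Cdk8 is the kinase of the Mediator kinase module, in which it pairs with cyclin C, and the module binds Mediator through Med13 and Med12. Mediator connects transcription factors with RNA polymerase II, and Cdk8 phosphorylates transcription factors, among them effectors of the Notch, SMAD and interferon pathways. Mouse ESCs in culture move between a naive state, like the epiblast before implantation, and a primed state on the way to differentiation. Leukaemia inhibitory factor (LIF) and inhibitors of Gsk3 and Mek, all used to maintain these cells, hold ESCs in the naive state.

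Gene reads per library ranged from 31520307 to 59770613, with a median of 35638554 in wild-type and 45825724 in ΔCdk8 libraries. Levels are given as TPM, the reads on the exons of a gene per length, scaled to the same total in each library. All 10 ESC marker genes checked were at 32.4 TPM or more in each of the 6 libraries. Cdk8 itself, ENSMUSG00000029635 on chromosome 5, was at 64.2, 69.4 and 74.2 TPM in wild-type samples 1, 2 and 3 and at 34.4, 56.8 and 85.3 TPM in clones 8, 11 and 15. The groups overlap, so the RNA does not separate the genotypes and is no check of the labels, and a transcript without the start codon can still be counted. Read counts on the gene gave a log2 fold change of 0.32, and reads on exons alone −0.39, with 70.4% to 84.3% of the gene's reads on introns in wild-type and 79.0% to 93.2% in ΔCdk8 libraries. The other genes of the kinase module, Cdk19, Ccnc, Med12, Med12l, Med13 and Med13l, had log2 fold changes between −0.06 (Med12) and 2.27 (Med12l, on chromosome 3), and edgeR adjusted p-values between 0.222 and 0.903.

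The genes of chromosome 14 had a median log2 ratio to the wild-type mean of 0.49, 0.56 and 0.61 in clones 8, 11 and 15. On chromosome 3 the median was 0.50 and 0.59 in clones 8 and 15 and −0.02 in clone 11, and on chromosome 6 it was −0.58 in clone 11, −0.01 in clone 8 and −0.14 in clone 15. The medians of all other autosomes lay between −0.16 and 0.02 in every clone. For this reason genes on these 3 chromosomes were set apart, of which 60 were higher and 13 lower in all 3 clones by the rule given next.

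**Figure D1:**
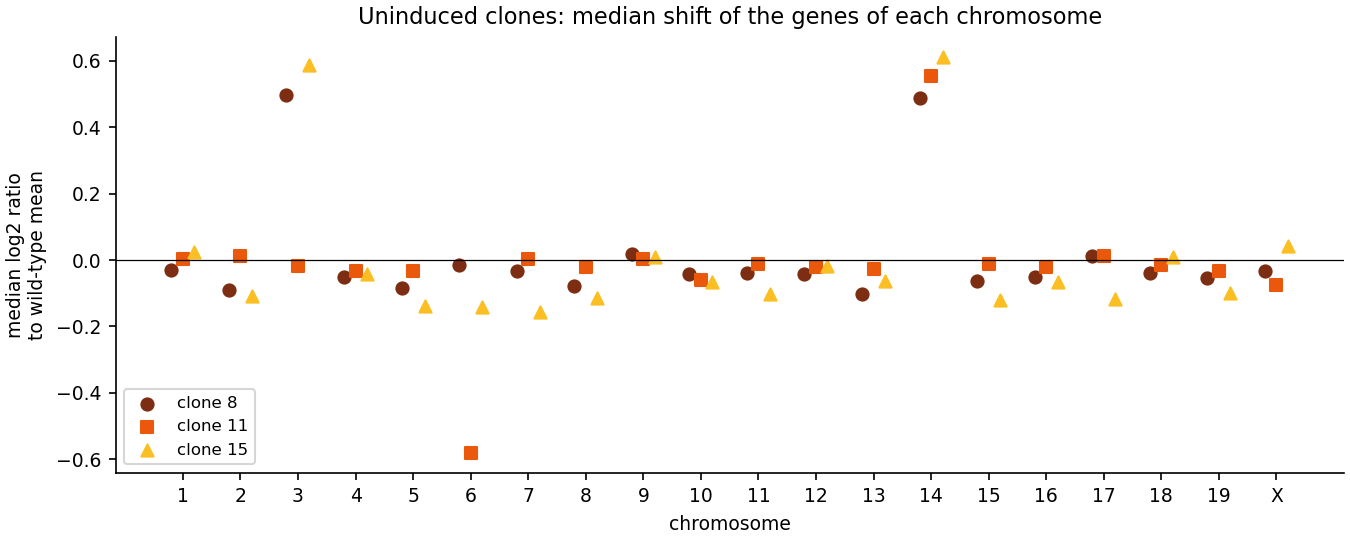
Median log2 ratio of normalised read counts to the wild-type mean (y axis) over the genes of each chromosome (x axis), with 1 point per uninduced ΔCdk8 clone. Chromosome 14 lies near 0.5 or above in all 3 clones, chromosome 3 in clones 8 and 15, and chromosome 6 lies at −0.58 in clone 11.

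A gene was counted as higher or lower in all 3 clones when each clone differed at least 2-fold from the wild-type mean and lay outside the wild-type range, both in normalised read counts and in TPM, with a mean of at least 1 TPM over the 6 libraries. Of 10578 genes, 171 (1.62%) were higher and 45 (0.425%) were lower in all 3 clones. This count is a description, and the test of each gene is given beside it. With edgeR (quasi-likelihood F test, p-values adjusted after Benjamini and Hochberg), 0 of 14646 genes were higher and 0 lower past the threshold, an adjusted p under 0.01 together with more than 2-fold difference (0% in either direction). At an unadjusted p under 0.05, 1738 genes (11.9%) were higher and 1244 (8.49%) lower. These counts themselves lay between 932 and 2735 higher and between 497 and 2704 lower when each library was left out in turn. At an edgeR adjusted p under 0.05 with no fold minimum there were 0 higher and 0 lower genes, but 305 and 113 without wild-type sample 1, 847 and 899 without clone 11 and 0 and 0 without any other single library. The lowest adjusted p over all genes was 0.101, so no gene below is written as having risen or fallen. Limma-voom gave 0 higher and 0 lower genes, whereas DESeq2's Wald test gave 264 higher (1.8%) and 122 lower (0.833%), or 807 (5.51%) and 499 (3.41%) at an adjusted p under 0.05 alone. In TPM all clones lay above all wild-type samples for 1535 of the 10578 genes (14.5%) and below them for 771 (7.29%). Of the 171 higher genes, 165 had an unadjusted edgeR p under 0.05 and 100 passed the threshold in DESeq2. Of the 45 lower genes these counts were 44 and 32. Since the rule and the tests read the same libraries, these counts are no separate support.

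Among the 171 higher genes, 67 had a wild-type mean under 1 TPM and reached the level minimum through the clones, and among the 45 lower genes 11 had a mean under 1 TPM in the clones. The libraries were not equally far apart. Wild-type sample 1 was the wild-type sample with the highest TPM for 139 of the 171 higher genes and that with the lowest for 34 of the 45 lower genes. Without it, 505 genes were higher and 114 lower in all 3 clones. The smallest shift of the 3 was that of clone 8 for 28, clone 11 for 72 and clone 15 for 71 higher genes, and that of clone 8 for 1, clone 11 for 32 and clone 15 for 12 lower genes. The counts were 598 and 211 without clone 11 and 258 and 105 without clone 15. Leaving out a clone removes a condition of the rule, so it could not lower these counts, and all 171 and 45 genes stayed in them. Nearest to the limit stood Ccng1, whose smallest shift, in clone 11, was 1.01 on the log2 scale, and Cyb5a missed the rule with 0.996. In bulk RNA, fewer cells of one kind and less RNA per cell cannot be told apart.

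Of the 15 higher genes with the largest smallest-clone shift, 13 had a wild-type mean under 1 TPM and met the level minimum only through the clones, so that their folds are over a group near 0. Hmga2 and Rpl39l were the others. Msln, the cell surface protein mesothelin at chr17:25748614-25754327, was at 0.686, 0 and 0.0807 TPM in wild-type samples 1, 2 and 3 and at 10.5, 10.4 and 8.56 TPM in clones 8, 11 and 15, 38.4-fold higher in the mean (log2 fold change 5.13, standard error 0.998, edgeR adjusted p = 0.124). Ly6a, the surface antigen Sca-1 of stem and progenitor cells, was at 0.134, 0.0591 and 0 TPM in wild type and 4.21, 1.18 and 3.09 TPM in the clones (log2 fold change 5.40, standard error 0.95, edgeR adjusted p = 0.113). In both genes every clone lay above every wild-type sample, as the rule requires. Hmga2, an architectural chromatin protein, was at 4.18, 2.51 and 5.58 TPM in wild type and 25.4, 33.2 and 23.6 TPM in the clones, 6.70-fold (log2 fold change 2.63, standard error 0.35, edgeR adjusted p = 0.101), and shared the lowest adjusted p of all genes. Loxl4, a lysyl oxidase of the matrix, was at 0.630, 0.0557 and 0.133 TPM in wild type and 6.02, 2.67 and 3.04 TPM in the clones (log2 fold change 3.74, standard error 0.85, edgeR adjusted p = 0.130). Krtdap, a keratinocyte protein, was at 1.71, 0 and 0.272 TPM in wild type and 9.18, 8.04 and 8.18 TPM in the clones (log2 fold change 3.08, standard error 0.69, edgeR adjusted p = 0.130), with wild-type sample 1 above the other wild-type samples. The remaining 10 of the 15 genes with the largest smallest-clone shift were Ott, Chit1, Ahsg, Aldh3a1, Cidea, H2-DMb1, Slc13a5, Rpl39l, Tex13b and Gcnt4, whose means were 5.61-fold (Gcnt4) to 41.8-fold (Chit1) higher. They include a chitinase (Chit1), the plasma protein fetuin A (Ahsg), an aldehyde dehydrogenase (Aldh3a1), a lipid droplet protein (Cidea), a citrate transporter (Slc13a5) and a ribosomal protein paralogue used in the testis (Rpl39l). Counts of Rpl39l and Ly6a can share reads with close paralogues.

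Among the lower genes with the largest smallest-clone shift, En1, a homeobox gene of the midbrain and hindbrain, was at 0.552, 9.61 and 5.98 TPM in wild type and 0.0508, 0.376 and 0.213 TPM in the clones (log2 fold change −4.82, standard error 1.15, edgeR adjusted p = 0.140). Wild-type sample 1, at 0.552 TPM, stood close to the clones in this gene. Pim2, a serine/threonine kinase at chrX:7878262-7883432, was at 178, 571 and 699 TPM in wild type and 38.3, 69.6 and 43.3 TPM in the clones, a 9.58-fold difference of means (log2 fold change −3.37, standard error 0.56, edgeR adjusted p = 0.113). Zfp608, a zinc finger gene, was at 5.35, 12.8 and 16.6 TPM in wild type and 1.14, 1.55 and 2.26 TPM in the clones (log2 fold change −2.94, standard error 0.45, edgeR adjusted p = 0.110). Myb, a transcription factor of progenitor cells, was at 7.19, 16.9 and 18.1 TPM in wild type and 2.75, 2.79 and 2.45 TPM in the clones (log2 fold change −2.49, standard error 0.37, edgeR adjusted p = 0.110). In Pim2, Zfp608 and Myb the lowest wild-type sample was still at least 2-fold above the highest clone, and sample 1 was the lowest wild-type sample for all 15 lower genes with the largest smallest-clone shift. Sema6a, a guidance molecule, was at 5.15, 19.2 and 31.9 TPM in wild type and 0.328, 1.602 and 1.81 TPM in the clones (log2 fold change −3.99, standard error 0.80, edgeR adjusted p = 0.126). The further 10 of the 15 were Ror1, Has2, Cdh9, Enpp2, Peg3, Gabra3, Aff3, Lpar4, Mfap2 and Pou3f1, 4.23-fold (Pou3f1) to 11.9-fold (Enpp2) lower. They encode a Wnt5a receptor (Ror1), the hyaluronan synthase Has2, a cadherin (Cdh9), autotaxin (Enpp2), which makes lysophosphatidic acid, and a receptor for lysophosphatidic acid (Lpar4). Elmo1, a regulator of Rac signalling and one of the genes with the lowest p, was at 46.1, 33.7 and 35.2 TPM in wild type and 14.3, 13.2 and 16.8 TPM in the clones (log2 fold change −1.51, standard error 0.17, edgeR adjusted p = 0.101).

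**Figure D2:**
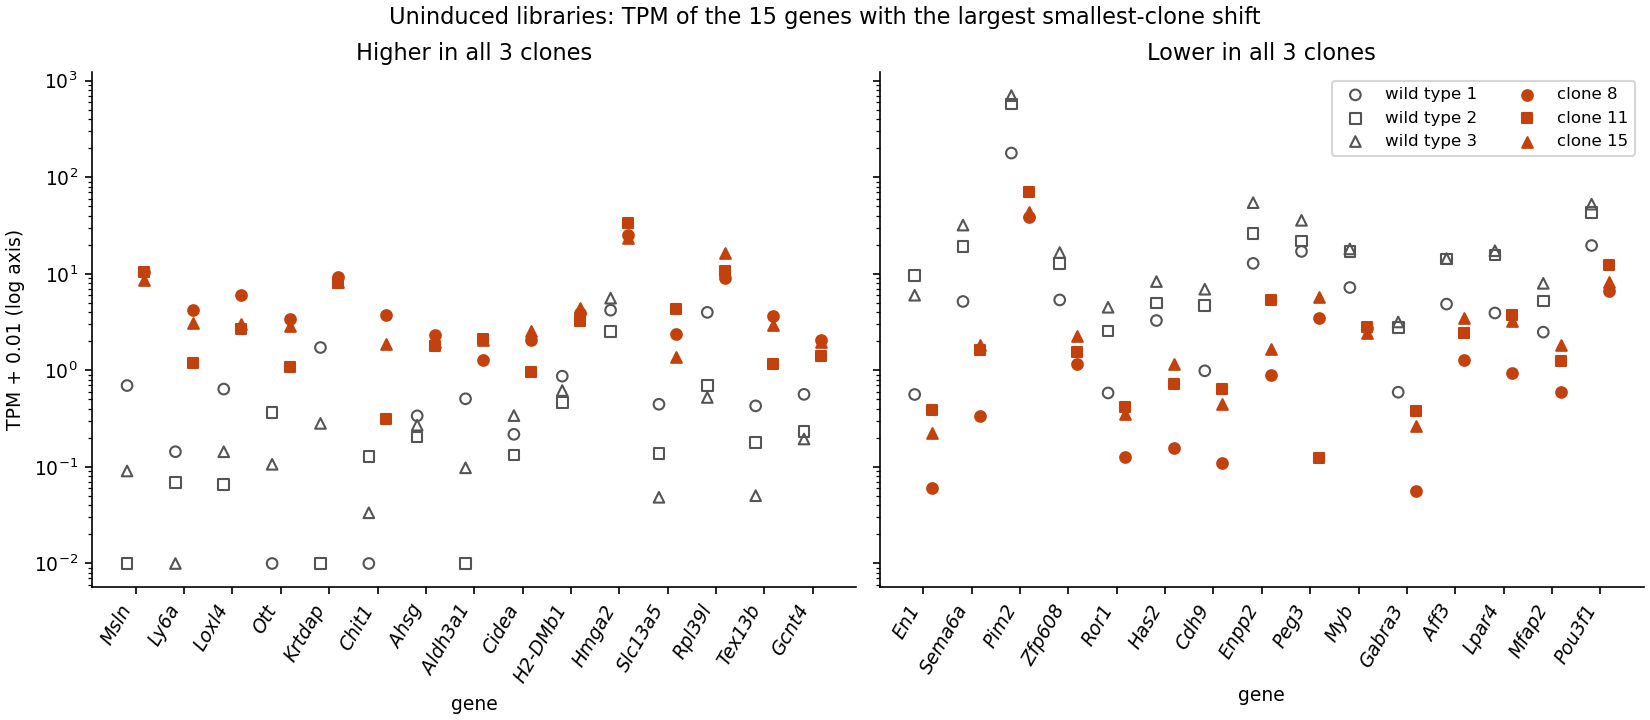
TPM plus 0.01 on a log axis (y axis) for the 15 higher (left) and 15 lower genes (right) with the largest smallest-clone shift, with open symbols for wild-type samples 1, 2 and 3 and filled symbols for clones 8, 11 and 15. The clones lie apart from all wild-type samples in every gene, as the rule requires, and wild-type sample 1 is often the wild-type sample nearest to them, as in En1.

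Genes of the primed state were lower in the clones and some genes of the naive state were higher. In the primed and epiblast list 0 of 18 tested genes were higher and 11 lower at an unadjusted p under 0.05, with a median log2 fold change of −1.45. Over all genes tested, 11.9% were higher and 8.49% lower at that p, with a median of 0.03. These shares are the ones to hold beside each list count below. The counts behind them moved when a library was left out, as given above. List counts and medians here and below include members on chromosomes 3, 6 and 14, and outside these chromosomes the median of the primed list was −1.27. Dnmt3b, the de novo DNA methyltransferase of the epiblast at chr2:153649450-153687730, was at 548, 815 and 997 TPM in wild type and 295, 309.6 and 277 TPM in the clones, 2.68-fold lower in the mean (log2 fold change −1.54, standard error 0.23, edgeR adjusted p = 0.110). Pou3f1 (Oct6), a POU factor of the primed epiblast, was at 19.6, 43.0 and 52.5 TPM in wild type and 6.69, 12.4 and 8.12 TPM in the clones (log2 fold change −2.21, standard error 0.43, edgeR adjusted p = 0.124). Sox4, a transcription factor of many progenitors, was at 23.6, 37.5 and 36.8 TPM in wild type and 6.98, 11.7 and 14.8 TPM in the clones (log2 fold change −1.71, standard error 0.31, edgeR adjusted p = 0.113). These 3 were lower in all 3 clones, for which the rule already requires groups that do not overlap. Dnmt3a, the second de novo methyltransferase, was at 94.5, 116 and 131 TPM in wild type and 31.9, 65.0 and 49.2 TPM in the clones (log2 fold change −1.35, standard error 0.30, edgeR adjusted p = 0.130) and missed the 2-fold minimum in clone 11. Otx2 on chromosome 14, a homeobox factor that drives exit from the naive state, was at 27.2, 92.9 and 77.0 TPM in wild type and 17.5, 29.1 and 12.9 TPM in the clones (log2 fold change −1.87, standard error 0.52, edgeR adjusted p = 0.154). Fgf5, the classical marker of the primed epiblast, was at 0.708, 5.90 and 9.04 TPM in wild type and 0.338, 1.10 and 0.446 TPM in the clones (log2 fold change −3.14, standard error 0.91, edgeR adjusted p = 0.163). For both of these wild-type sample 1 lay within the range of the clones. Lef1 on chromosome 3 and Zic2 on chromosome 14 had log2 fold changes of −2.88 and −2.34. When each library was left out in turn, 9 to 13 genes of the primed list were lower at that p. Krt18, Cdh2 and Fgf15 of the same list had log2 fold changes above 0, of 1.79, 0.18 and 0.42.

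In the naive list 6 of 19 tested genes were higher and 0 lower at an unadjusted p under 0.05, with a median log2 fold change of 0.54 (0.62 outside chromosomes 3, 6 and 14). Tbx3, a T-box factor of the naive network at chr5:119670669-119684724, was at 3.93, 2.63 and 2.07 TPM in wild type and 21.1, 17.9 and 13.9 TPM in the clones, 6.13-fold higher (log2 fold change 2.46, standard error 0.32, edgeR adjusted p = 0.101). Tfcp2l1, a target of LIF signalling, was at 39.4, 16.9 and 10.01 TPM in wild type and 91.9, 102 and 76.7 TPM in the clones (log2 fold change 1.88, standard error 0.48, edgeR adjusted p = 0.147). Tcl1, a coactivator of Akt, was at 19.2, 13.5 and 7.85 TPM in wild type and 68.9, 50.2 and 42.7 TPM in the clones (log2 fold change 1.87, standard error 0.37, edgeR adjusted p = 0.124). All 3 were higher in all 3 clones. Nanog on chromosome 6 was at 157, 98.4 and 50.2 TPM in wild type and 403, 321 and 192 TPM in the clones (log2 fold change 1.42, standard error 0.45, edgeR adjusted p = 0.175), with the lowest clone above the highest wild-type sample. The other members did not all lie on one side: Klf2, Zfp42, Nr0b1, Gbx2, Fbxo15 and Dppa5a overlapped between the groups, with log2 fold changes from −0.21 (Gbx2) to 0.80 (Klf2). The list median was 0.44, −0.06 and −0.80 in wild-type samples 1, 2 and 3 and 0.58, 0.93 and 0.11 in clones 8, 11 and 15, as log2 ratios to the wild-type mean. For the primed list these medians were −0.72, 0.21 and 0.30 in wild type and −2.28, −1.28 and −1.63 in the clones. Wild-type sample 1 thus lay on the side of the clones in both lists, and clone 15 lay below wild-type sample 1 in the naive list. Without wild-type sample 1 the median log2 fold change was 0.72 for the naive and −1.74 for the primed list. The naive median was 0.25 without wild-type sample 3 and was 0.36 without clone 11, where 2 of its genes were lower at an unadjusted p under 0.05. Of the core pluripotency genes, Pou5f1 (Oct4) was at 1091, 1308 and 1353 TPM in wild type and 1126, 1779 and 713 TPM in the clones, which overlap. This list had 0 higher and 3 lower of 10 tested (median log2 fold change −0.38) at an unadjusted p under 0.05. Its lowest p was that of Lin28a, an inhibitor of let-7 maturation, with 304, 450.0 and 528 TPM in wild type and 112, 232 and 181 TPM in the clones (log2 fold change −1.42, standard error 0.34, edgeR adjusted p = 0.140). Without clone 11 it held 7 genes lower at an unadjusted p under 0.05 in place of 3, and its median was −0.77. It held 1 such gene without wild-type sample 1, wild-type sample 3, clone 8 or clone 15, and its median was −0.19 without clone 15.

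**Figure D3:**
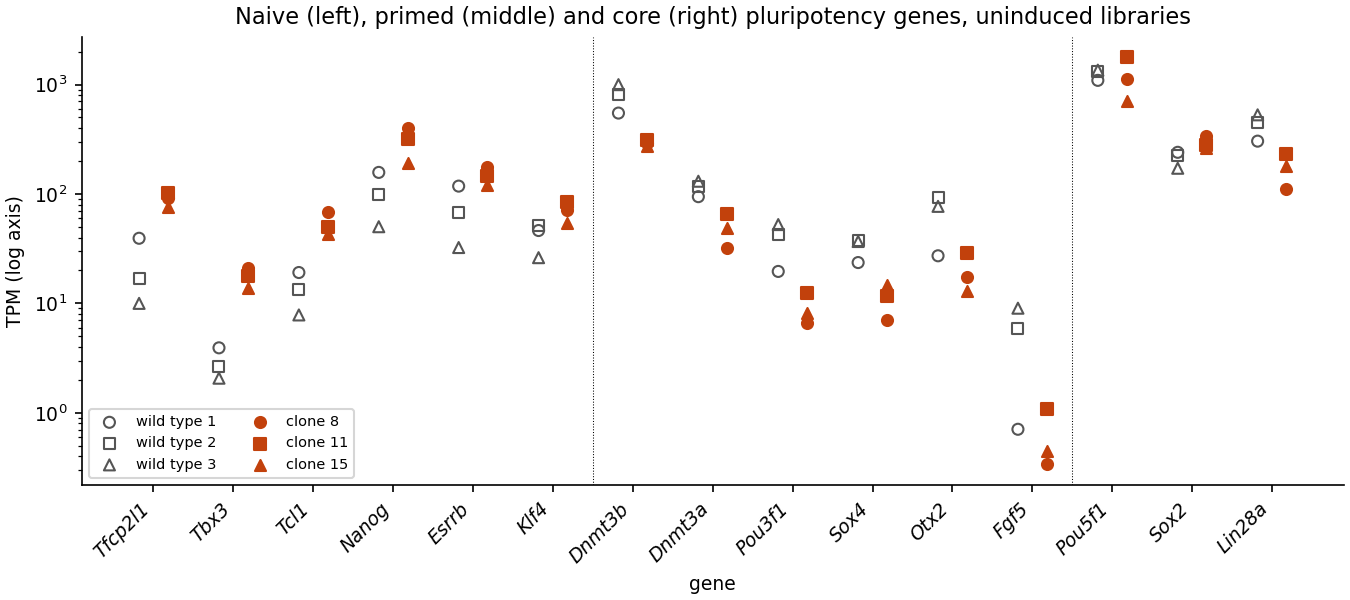
TPM on a log axis (y axis) of 6 naive, 6 primed and 3 core pluripotency genes (x axis) in each uninduced library, open symbols for wild-type and filled symbols for ΔCdk8 samples. Tbx3, Tcl1 and Tfcp2l1 lie higher and Dnmt3b, Pou3f1 and Sox4 lower in every clone than in every wild-type sample, as the rule requires, whereas Pou5f1 overlaps.

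Germline genes that DNA methylation keeps low in somatic cells were on the higher side. In this list 15 of 25 tested genes were higher and 0 lower at an unadjusted p under 0.05, with a median log2 fold change of 1.09. Tex11, an X-linked gene of meiotic recombination, was at 3.29, 5.998 and 3.93 TPM in wild type and 22.4, 22.4 and 29.7 TPM in the clones, 5.63-fold higher (log2 fold change 2.32, standard error 0.27, edgeR adjusted p = 0.101), and was among the genes with the lowest adjusted p. Hormad2, a protein of unsynapsed meiotic axes, was at 4.09, 0.974 and 0.929 TPM in wild type and 5.89, 5.33 and 7.73 TPM in the clones (log2 fold change 1.63, standard error 0.52, edgeR adjusted p = 0.177). Tex101, a surface protein of germ cells, was at 0.535, 0.516 and 0.567 TPM in wild type and 2.09, 1.65 and 1.61 TPM in the clones (log2 fold change 1.55, standard error 0.40, edgeR adjusted p = 0.150). These 3 were higher in all 3 clones, of 14 tested members that meet the level and chromosome limits of that rule. Chromosomes 3, 6 and 14 hold 8 members of the list, and outside them its median was 0.997. Ddx4 (Vasa), an RNA helicase of germ cells, was at 10.1, 14.5 and 17.8 TPM in wild type and 33.5, 24.1 and 37.8 TPM in the clones (log2 fold change 0.997, standard error 0.24, edgeR adjusted p = 0.143). Dazl, an RNA-binding protein of germ cells, was at 3.09, 2.54 and 3.48 TPM in wild type and 8.68, 4.71 and 8.77 TPM in the clones (log2 fold change 1.09, standard error 0.30, edgeR adjusted p = 0.155). In both, all clones lay above all wild-type samples, with clone 11 the lowest clone. When each library was left out in turn, 11 to 20 genes of the germline list were higher at that p. The list median was 1.37, 0.35 and 1.19 in clones 8, 11 and 15, and 1.37 as a log2 fold change without clone 11. Rpl10l and Tdrd1 had log2 fold changes below 0 (−0.25 and −0.79). The list of DNA methylation enzymes had 1 higher and 3 lower of 10 tested (median log2 fold change −0.29), and the lower ones were Dnmt3a, Dnmt3b and the glycosylase Tdg.

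Many promoter windows of these genes hold a short palindrome. Windows from 250 bases before to 50 after each annotated start were taken from RefSeq (GRCm38.p6). The palindrome CACGTG, the E-box that MYC, MAX and related factors bind, reads the same on both strands and was present in 15 of the 29 windows of the germline list (51.7%, 24 of its 26 symbols have a window), against 7.15% of all 32851 windows. It was found in 3.4% of the windows of the genes higher and 12.2% of those lower in all 3 clones. Within the germline list, 6 of 12 tested genes with the palindrome and 7 of 11 without it were higher at an unadjusted p under 0.05, and the medians were 1.00 and 1.09 on the log2 scale. The 120 bases before the start are printed for Ddx4, for Slc25a31, a germ cell ADP/ATP carrier on chromosome 3 at 1.66, 1.11 and 1.504 TPM in wild type and 8.25, 1.91 and 8.48 TPM in the clones, and for Sycp3, a protein of the synaptonemal complex at 12.9, 13.4 and 16.6 TPM in wild type and 19.4, 14.2 and 38.2 TPM in the clones that overlapped between the groups. They are written 5′ to 3′ on the strand of the gene, with the palindrome in capitals. The windows lie at chr13:112652311-112652430, reverse strand (Ddx4), chr3:40708751-40708870, forward strand (Slc25a31) and chr10:88459467-88459586, forward strand (Sycp3).
Ddx4: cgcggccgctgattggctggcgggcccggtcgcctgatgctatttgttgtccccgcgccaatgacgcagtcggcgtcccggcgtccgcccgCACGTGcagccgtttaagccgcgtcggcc
Slc25a31: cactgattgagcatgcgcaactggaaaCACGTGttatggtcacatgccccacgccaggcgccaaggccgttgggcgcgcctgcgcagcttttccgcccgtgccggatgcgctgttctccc
Sycp3: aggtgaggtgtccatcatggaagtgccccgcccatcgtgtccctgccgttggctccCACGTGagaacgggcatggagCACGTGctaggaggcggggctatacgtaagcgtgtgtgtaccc

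Genes of antigen presentation by MHC class II lay on the higher side, a group that was put together after the values had been seen. Cd74, the invariant chain that guides class II molecules, was at 3.88, 2.22 and 2.66 TPM in wild type and 17.7, 10.96 and 23.3 TPM in the clones, 5.92-fold higher (log2 fold change 2.39, standard error 0.37, edgeR adjusted p = 0.110). H2-DMb1, a chain of the peptide-loading molecule H2-DM, was at 0.860, 0.457 and 0.608 TPM in wild type and 3.96, 3.24 and 4.42 TPM in the clones (log2 fold change 2.39, standard error 0.43, edgeR adjusted p = 0.113). H2-Eb1, a class II beta chain, was at 1.97, 0.963 and 0.433 TPM in wild type and 9.46, 5.88 and 4.14 TPM in the clones (log2 fold change 2.24, standard error 0.64, edgeR adjusted p = 0.162). In this group 5 of 7 tested genes were higher and 0 lower at an unadjusted p under 0.05, with a median log2 fold change of 2.24. These 3 were higher in all 3 clones. H2-Ab1 lay above wild type in each clone but under 2-fold in clone 11 (1.33, 1.12 and 0.775 TPM in wild type and 6.83, 1.81 and 7.42 TPM in the clones). H2-DMa did not separate the groups, at 1.29, 2.52 and 2.83 TPM in wild type and 2.43, 2.08 and 4.11 TPM in the clones. Ciita, the transactivator of class II genes, was at 0.0244 TPM or less in all 6 libraries. Several are close paralogues, and reads that fit more than one are uncertain between them.

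The motif CTGATTGG, the form of the Y box in class II promoters, which holds CCAAT on its other strand, was present on either strand in 4 of 9 windows of this group (44.4%), those of H2-Aa, H2-Eb1, H2-Eb2 and H2-Oa, against 4.1% of all windows. In these 4 it began 46 to 103 bases before the start. H2-Eb1 is the only one of the 4 that was higher in all 3 clones. H2-Aa was below the read minimum for testing, at 0.548 TPM or less, and H2-Eb2 was at 0, 0.0645 and 0.0966 TPM in wild type and 0.423, 0.223 and 0.281 TPM in the clones. H2-Oa overlapped between the groups, at 0.814, 0.328 and 0.235 TPM in wild type and 1.59, 0.705 and 1.94 TPM in the clones. The window of H2-DMb1, which was higher in all 3 clones, does not hold these letters. CTGATTGG was in 5.44% of the windows of the genes higher and 12.2% of those lower in all 3 clones, in 24.1% of the windows of the germline list and in 23.3% of those of the cholesterol and fatty acid list. Of the 9 motifs searched (CACGTG, CTGATTGG, TCACCCCAC, TCACNCCAC, the box CCAAT, the GC box GGGCGG, the STAT site TTCCNGGAA, the E-box CACCTG, and a run of 3 G followed, after a gap of any 6 bases, by a run of 3 C, each on both strands), the first and second are described, and the others were in 0.551%, 1.24%, 37.4%, 35.7%, 1.15%, 20.2% and 13.2% of all windows in that order. The shares of the others also differed between the gene sets searched. CCAAT was in 18.2% (primed list) to 88.9% (class II group) of the windows of a set, and in 73.3% of those of the cholesterol list. GGGCGG was in 0% (class II group) to 73.3% (cholesterol list), with 55.8% for the higher and 53.7% for the lower genes. The 120 bases before the start are given for H2-Eb1 (chr17:34305747-34305866, forward strand), with the motif CTGATTGG in capitals.
H2-Eb1: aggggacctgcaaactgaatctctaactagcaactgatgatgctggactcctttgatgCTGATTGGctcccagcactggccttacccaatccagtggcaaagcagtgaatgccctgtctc

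Most genes of cholesterol and fatty acid synthesis lay slightly higher. In this list 21 of 35 tested genes were higher and 0 lower at an unadjusted p under 0.05, with a median log2 fold change of 0.63, and 29 of the 35 lay above 0. Sqle, which oxidises squalene, was at 103, 91.5 and 88.7 TPM in wild type and 186, 149.8 and 162 TPM in the clones (log2 fold change 0.65, standard error 0.14, edgeR adjusted p = 0.128). Cyp51, the lanosterol demethylase, was at 57.2, 57.9 and 53.9 TPM in wild type and 101, 81.2 and 112 TPM in the clones (log2 fold change 0.63, standard error 0.13, edgeR adjusted p = 0.124). In both genes the lowest clone lay above the highest wild-type sample. Scd1, the stearoyl-CoA desaturase, was the member higher in all 3 clones, at 93.3, 52.2 and 38.1 TPM in wild type and 207, 139 and 161 TPM in the clones (log2 fold change 1.30, standard error 0.33, edgeR adjusted p = 0.145). Stard4, a sterol carrier, was at 19.9, 16.1 and 13.7 TPM in wild type and 51.3, 27.4 and 49.1 TPM in the clones (log2 fold change 1.18, standard error 0.23, edgeR adjusted p = 0.124). Hmgcs1, Srebf1, Acly and Fasn overlapped between the groups, with log2 fold changes of 0.07, −0.01, −0.07 and −0.43. When each library was left out in turn, 15 to 22 genes of the cholesterol and fatty acid list were higher at that p. The list median was 0.14, −0.01 and −0.17 in wild-type samples 1, 2 and 3 and 0.74, 0.41 and 0.51 in the clones, and when each library was left out in turn its log2 fold change stayed between 0.57 and 0.71.

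Targets of p53 lay lower in the median, and less so in clone 11 than in clones 8 and 15. In the list 2 of 33 tested genes were higher and 18 lower at an unadjusted p under 0.05, with a median log2 fold change of −0.90. Cdkn1a, which encodes the cell cycle inhibitor p21, was at 28.4, 35.1 and 47.4 TPM in wild type and 1.80, 12.1 and 1.45 TPM in clones 8, 11 and 15 (log2 fold change −2.93, standard error 0.87, edgeR adjusted p = 0.169). Ccng1, cyclin G1, was at 89.6, 108 and 172 TPM in wild type and 9.97, 61.4 and 10.9 TPM in the clones (log2 fold change −2.23, standard error 0.78, edgeR adjusted p = 0.196). Eda2r, a death receptor on the X chromosome, was at 15.5, 14.5 and 14.2 TPM in wild type and 0.250, 7.13 and 0.271 TPM in the clones (log2 fold change −2.59, standard error 1.24, edgeR adjusted p = 0.278). Plk2, a Polo-like kinase, was at 19.6, 31.8 and 52.2 TPM in wild type and 1.86, 13.7 and 8.68 TPM in the clones (log2 fold change −2.22, standard error 0.71, edgeR adjusted p = 0.178). These 4 were lower in all 3 clones, but in each the level in clone 11 was above those of clones 8 and 15. Mdm2, the ubiquitin ligase of p53, was at 78.9, 80.3 and 95.3 TPM in wild type and 32.5, 61.1 and 43.1 TPM in the clones (log2 fold change −1.002, standard error 0.27, edgeR adjusted p = 0.154). Zmat3 on chromosome 3 and Ercc5, 2 further targets, lay lower in each clone than in any wild-type sample with log2 fold changes of −0.97 and −0.95. Sesn1 and, on chromosome 14, Tnfrsf10b lay higher, with 0.70 and 0.77. The list median was −1.13, −0.26 and −1.19 in clones 8, 11 and 15. Trp53 itself, examined after its values were seen, was at 381, 486 and 478 TPM in wild type and 30.1, 527 and 29.7 TPM in the clones, so that its RNA was low in clones 8 and 15 and above the wild-type range in clone 11. Of the p53 list, 11 genes were lower at that p without wild-type sample 2, 8 without wild-type sample 3, 7 without clone 8 and 8 without clone 15. Without clone 11 there were 26 such genes and the median was −1.23. The part of Trp53 in these differences was not tested.

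Of the signalling pathways with which Cdk8 is known to interact, single genes were apart in all 3 clones, and the list medians lay between −0.29 (interferon) and 0.53 (LIF and STAT3). In the Notch list the counts at an unadjusted p under 0.05 were 2 higher and 2 lower of 20 tested (median log2 fold change −0.18). They lay near the shares over all genes tested, which were 11.9% higher and 8.49% lower. Hes6, an inhibitor of Hes1, was at 39.4, 52.1 and 72.1 TPM in wild type and 21.9, 25.98 and 20.3 TPM in the clones (log2 fold change −1.41, standard error 0.28, edgeR adjusted p = 0.124). Dtx1, a Notch ubiquitin ligase, was at 8.96, 18.8 and 17.5 TPM in wild type and 7.19, 6.60 and 6.09 TPM in the clones (log2 fold change −1.32, standard error 0.31, edgeR adjusted p = 0.134). Hes1, a Notch target, lay on the other side with 9.43, 14.6 and 10.6 TPM in wild type and 24.3, 27.2 and 21.5 TPM in the clones (log2 fold change 0.90, standard error 0.29, edgeR adjusted p = 0.178). In the Nodal list there were 5 higher and 2 lower of 16 tested (median log2 fold change 0.09). Lefty2, a secreted antagonist of Nodal, was at 10.5, 5.45 and 3.54 TPM in wild type and 39.2, 84.0 and 23.2 TPM in the clones (log2 fold change 2.81, standard error 0.63, edgeR adjusted p = 0.130), with the highest level in clone 11. Pmepa1, an inhibitor of TGF-beta signalling, was at 2.30, 0.812 and 1.21 TPM in wild type and 4.31, 9.71 and 4.96 TPM in the clones (log2 fold change 2.09, standard error 0.52, edgeR adjusted p = 0.143). The BMP and Id list had 5 higher and 3 lower of 18 tested (median log2 fold change −0.07). Its inhibitory SMAD gene Smad6 was higher in all 3 clones (log2 fold change 1.504, standard error 0.40, edgeR adjusted p = 0.154). In the LIF and STAT3 list, which includes Tfcp2l1, there were 6 higher and 3 lower of 17 tested (median log2 fold change 0.53). Of the LIF and STAT3 list, 2 genes were higher at that p without wild-type sample 2, 2 without wild-type sample 3 and 3 without clone 8. The interferon list had 2 higher and 3 lower of 19 tested (median log2 fold change −0.29), with Oas1a higher in all 3 clones at 2.99, 1.55 and 0.453 TPM in wild type and 9.25, 18.4 and 5.53 TPM in the clones. With each library left out the interferon median lay between −0.33 (without wild-type sample 2) and −0.07 (without clone 15). The ERK-responsive list had 1 higher and 3 lower of 20 tested (median log2 fold change −0.15). The Wnt target list had 1 higher and 1 lower of 15 tested (median log2 fold change 0.01). Phlda1 was the ERK-responsive gene higher in all 3 clones (log2 fold change 1.55, standard error 0.36, edgeR adjusted p = 0.132).

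Genes of the extracellular matrix, of cell adhesion and of the S100 and annexin families were on the higher side. The matrix list had 12 higher and 1 lower of 24 tested (median log2 fold change 0.94) at an unadjusted p under 0.05. The adhesion list had 11 higher and 2 lower of 26 tested (median log2 fold change 0.70). The S100 and annexin list had 9 higher and 0 lower of 15 tested (median log2 fold change 1.74). Nid1, the basement membrane protein nidogen 1, was at 26.9, 8.79 and 5.30 TPM in wild type and 55.6, 39.3 and 54.2 TPM in the clones (log2 fold change 1.70, standard error 0.55, edgeR adjusted p = 0.179). Itga3, an integrin that binds laminin, was 2.89-fold higher in the mean, at 28.3, 14.1 and 22.7 TPM in wild type and 56.2, 56.3 and 75.7 TPM in the clones (log2 fold change 1.37, standard error 0.26, edgeR adjusted p = 0.115). Cd24a, a glycosylated surface protein, was lower in all 3 clones, at 45.4, 119 and 122 TPM in wild type and 19.9, 41.0 and 35.8 TPM in the clones (log2 fold change −1.70, standard error 0.44, edgeR adjusted p = 0.149). Anxa3, a calcium-dependent membrane-binding protein, was at 3.64, 0.511 and 0.536 TPM in wild type and 11.55, 4.58 and 29.3 TPM in the clones (log2 fold change 3.17, standard error 0.90, edgeR adjusted p = 0.159). Of the matrix list, 6 genes were higher at that p without wild-type sample 2. Of the adhesion list, 5 genes were higher at that p without wild-type sample 2, 5 without wild-type sample 3 and 5 without clone 8. Its median lay between 0.44 (without clone 8) and 0.89 (without wild-type sample 1). Of the S100 and annexin list, 5 genes were higher at that p without wild-type sample 3. In the S100 and annexin list 11 of 15 members lie on chromosomes 3, 6 and 14, and the median of the other 4 was 2.01. Of the 8 on chromosome 3, S100a6 was at 168, 11.2 and 15.2 TPM in wild type and 439.6, 304 and 372 TPM in the clones. The list median was 0.71, −0.70 and −0.42 in wild-type samples 1, 2 and 3 and 1.85, 0.54 and 2.16 in the clones, so that wild-type sample 1 lay above clone 11.

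Markers of other cell types differed unequally between libraries. The trophoblast and simple epithelium list had 2 higher and 0 lower of 13 tested (median log2 fold change 0.92) at an unadjusted p under 0.05, with medians of 0.92, −0.97 and −0.73 in wild-type samples 1, 2 and 3 and 0.86, 0.00 and 1.27 in the clones. Its summed level was 306 to 459 TPM in wild type and 385 to 681 TPM in the clones, most of it Epcam. Tpbpa was at 0.0291 TPM or less throughout. Of the trophoblast list, 9 genes were higher at that p without wild-type sample 1, 1 without wild-type sample 2, 0 without wild-type sample 3, 1 without clone 8, 4 without clone 11 and 1 without clone 15. Its median log2 fold change then lay between 0.69 (without clone 15) and 1.96 (without wild-type sample 1). Anxa2, a protein of epithelia and mesenchyme, was at 121, 8.89 and 5.69 TPM in wild type and 246, 48.1 and 279 TPM in the clones, and here too sample 1 lay within the range of the clones. The fibroblast list had 2 higher and 0 lower of 9 tested (median log2 fold change 1.06) and a median of 0.63 outside chromosomes 3, 6 and 14, with Acta2 at 2.90, 0.369 and 64.3 TPM in clones 8, 11 and 15. Its medians were −0.27, −0.24 and 1.74 in clones 8, 11 and 15, and without clone 15 the median log2 fold change was −0.25. The defining genes Dcn and Lum were at 0.345 TPM or less in every library. The primitive endoderm list had 7 higher and 0 lower of 15 tested (median log2 fold change 0.92). Of the primitive endoderm list, 2 genes were higher at that p without wild-type sample 2, 3 without wild-type sample 3 and 4 without clone 8. Without clone 11 its median was 0.37, with 2 genes lower. Its member Amn, a receptor component of visceral endoderm, was higher in all 3 clones at 0.426, 0.377 and 0.677 TPM in wild type and 4.52, 1.19 and 1.13 TPM in the clones. Gata4 on chromosome 14 was at 1.13, 0.164 and 0.536 TPM in wild type and 1.82, 2.37 and 5.42 TPM in the clones. Sox17, Foxa2 and Afp were at 0.265 TPM or less throughout. The primitive streak and mesoderm list had 1 higher and 0 lower of 10 tested (median log2 fold change 0.79), with Eomes at 3.64, 1.73 and 1.45 TPM in wild type and 14.1, 3.84 and 8.70 TPM in the clones. The neural list had 3 higher and 1 lower of 9 tested (median log2 fold change −0.43). Genes of the two-cell-like state had 2 higher and 1 lower of 8 tested (median log2 fold change 1.08), with Zscan4c at 0.106, 0.282 and 0 TPM in wild type and 2.36, 0.0481 and 4.06 TPM in the clones, at wild-type level in clone 11. The medians of this list were 1.31, −0.82 and 2.17 in clones 8, 11 and 15, so that clone 11 lay on the opposite side. Its median log2 fold change was 2.28 without wild-type sample 1, 0.64 without clone 8 and 0.65 without clone 15. Of the two-cell-like list, 1 gene was higher at that p without wild-type sample 1, 0 without wild-type sample 3, 0 without clone 8, 4 without clone 11 and 0 without clone 15. The part of such cells in the differences above was not tested.

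At an unadjusted p under 0.05 the imprinted genes had 3 higher and 4 lower of 33 tested (median log2 fold change −0.26). Over all genes tested the shares at that p were 11.9% higher and 8.49% lower. Igf2, the fetal growth factor, was higher in all 3 clones at 17.7, 0.660 and 1.73 TPM in wild type and 24.0, 27.8 and 129.7 TPM in the clones, with wild-type sample 1 well above the other wild-type samples. Peg3, a zinc finger gene expressed from the paternal allele, was lower at 17.0, 21.8 and 35.7 TPM in wild type and 3.51, 0.112 and 5.77 TPM in the clones (log2 fold change −3.19, standard error 1.005, edgeR adjusted p = 0.177). The hypoxia and glycolysis list had 5 higher and 2 lower of 32 tested (median log2 fold change 0.09). Of the hypoxia list, 16 genes were higher at that p without wild-type sample 1, 0 without wild-type sample 2, 0 without wild-type sample 3, 0 without clone 8, 9 without clone 11 and 1 without clone 15. Its median was 0.53 without wild-type sample 1 and −0.05 without wild-type sample 3. Vegfa was its member higher in all 3 clones, at 21.1, 3.68 and 2.53 TPM in wild type and 54.3, 26.04 and 48.6 TPM in the clones. Lists in which no gene outside chromosomes 3, 6 and 14 met the rule, or the only one is a p53 target, were the following. The list of the MYC network and ribosome biogenesis had 0 higher and 9 lower of 20 tested (median log2 fold change −0.48), with a median of −0.73, −0.09 and −0.81 in clones 8, 11 and 15. Of the MYC and ribosome list, 4 genes were lower at that p without wild-type sample 2, 3 without wild-type sample 3, 3 without clone 8, 17 without clone 11 and 3 without clone 15. The NRF2 list had 0 higher and 7 lower of 16 tested (median log2 fold change −0.46), with Txnrd1, thioredoxin reductase, at 301, 388 and 411 TPM in wild type and 169, 208 and 207 TPM in the clones. Of the NRF2 list, 4 genes were lower at that p without wild-type sample 1, 4 without wild-type sample 3 and 3 without clone 8. Genes of the integrated stress response had 3 higher and 0 lower of 25 tested (median log2 fold change 0.28), near the higher share of all genes. Of the integrated stress list, 13 genes were higher at that p without wild-type sample 1, 1 without wild-type sample 2, 1 without wild-type sample 3, 5 without clone 11 and 1 without clone 15. Its median was 0.90 without wild-type sample 1 and 0.03 without wild-type sample 3. Genes of the unfolded protein response had 4 higher and 0 lower of 14 tested (median log2 fold change 0.15). The Polycomb list had 1 higher and 4 lower of 33 tested (median log2 fold change 0.00). Phc1 on chromosome 6 was at 449, 523 and 547 TPM in wild type and 226, 241 and 289.5 TPM in the clones. All clones lay below all wild-type samples in this gene (log2 fold change −1.18, standard error 0.15, edgeR adjusted p = 0.101). Cell cycle lists had 0 higher and 2 lower of 20 tested (median log2 fold change −0.26) for S phase, 2 higher and 1 lower of 20 tested (median log2 fold change 0.10) for mitosis and 2 higher and 1 lower of 15 tested (median log2 fold change 0.43) for G1, with Cdkn1a among the last. Further genes with the lowest p in a list without a gene that met the rule were Nop2, Mcm2, Ccnb2, Actb, mt-Cytb, Cth, Dnajc3, Stmn2, Lgals3, S100a4 and Ddit4l, with log2 fold changes of −0.92, −0.67, 0.58, −0.94, −0.81, 1.87, 0.96, 0.91, 0.91, 5.61 and −2.26. Of these, Nop2, Mcm2, Cth, Dnajc3, Stmn2, Lgals3, S100a4 and Ddit4l lie on chromosome 3, 6 or 14. The actin list had 1 higher and 4 lower of 20 tested (median log2 fold change −0.16), and the list of metallothioneins and RNA-quality controls, which includes mitochondrial transcripts, 0 higher and 1 lower of 11 tested (median log2 fold change −0.03).

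Lists with 5 or fewer genes at that p in a direction also depended on single libraries. Without wild-type sample 1, 8 of 33 imprinted genes and 5 of 33 Polycomb genes were higher, beside 2491 of 14646 genes. Without clone 11, 10 of 33 imprinted, 11 of 20 S phase, 7 of 33 Polycomb, 6 of 16 Nodal and 6 of 15 Wnt target genes were lower. Over all genes in that fit 2684 of 14644 were lower, against 1244 of 14646 with all libraries. The counts over all genes thus depended on single libraries too. Leaving out 1 library turned the sign of some list medians. For the imprinted genes the median was 0.08 without wild-type sample 3 and 0.04 without clone 8. For the hypoxia list the median was −0.05 without wild-type sample 3 and −0.01 without clone 8. For the Notch list the median was 0.04 without wild-type sample 3. For the Wnt target list the median was −0.10 without wild-type sample 1, −0.04 without wild-type sample 2, −0.06 without wild-type sample 3, −0.06 without clone 8, −0.41 without clone 11 and −0.06 without clone 15. For the BMP and Id list the median was 0.11 without wild-type sample 3. For the Nodal list the median was −0.12 without clone 11. For the actin list the median was 0.06 without wild-type sample 3 and 0.08 without clone 11, but −0.54 without clone 15. For the list of metallothioneins and RNA-quality controls the median was 0.10 without clone 15. Other medians moved but kept their sign. The ERK-responsive median lay between −0.31 (without clone 11) and −0.10 (without wild-type sample 1). The neural median lay between −0.50 (without wild-type sample 1) and −0.17 (without wild-type sample 3).

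**Figure D4:**
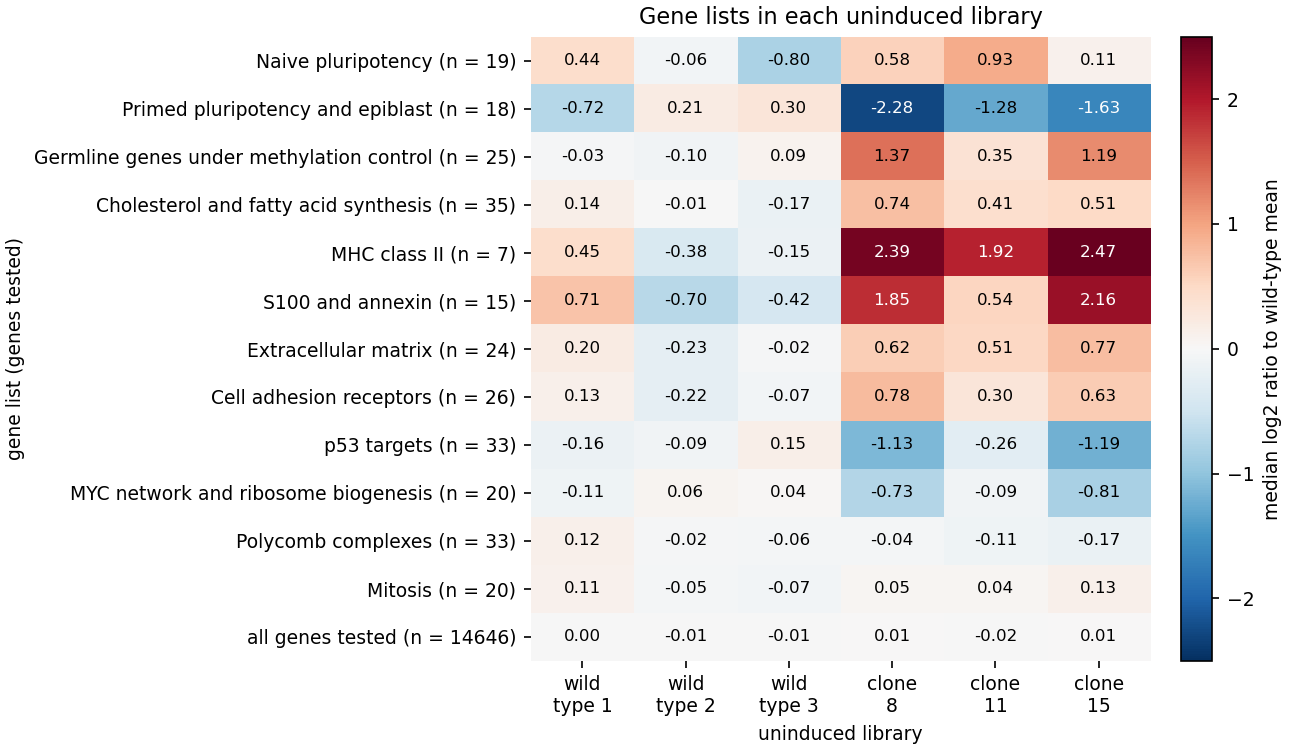
Median log2 ratio to the wild-type mean over the genes of a list (rows, with the number of genes tested) in each uninduced library (columns), printed in each cell. The primed list lies at −1.28 or below in all 3 clones and at −0.72 in wild-type sample 1, and the p53 targets lie at −0.26 in clone 11 against −1.13 and −1.19 in clones 8 and 15.

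Of the genes higher in all 3 clones, 7 more were picked singly after their values had been seen, and they stand for no group or function. Ptgs1 (cyclooxygenase 1) was at 0.871, 0.124 and 0.149 TPM in wild type and 3.04, 4.51 and 2.10 TPM in the clones. Ptges (prostaglandin E synthase) was at 3.42, 1.49 and 1.93 TPM in wild type and 14.2, 7.96 and 9.40 TPM in the clones. Slco2a1, a prostaglandin transporter, was at 0.698, 0.135 and 0.156 TPM in wild type and 2.83, 0.757 and 2.51 TPM in the clones. Tgm2, transglutaminase 2, was at 3.22, 1.86 and 1.52 TPM in wild type and 12.9, 9.07 and 17.2 TPM in the clones (log2 fold change 2.40, standard error 0.37, edgeR adjusted p = 0.110). Tgfb1, the ligand TGF-beta 1, was at 4.18, 3.37 and 3.22 TPM in wild type and 12.7, 11.8 and 11.49 TPM in the clones (log2 fold change 1.505, standard error 0.25, edgeR adjusted p = 0.113). Raet1d, a ligand of a natural killer cell receptor, and the class I gene H2-T10 were at 7.31, 7.87 and 9.77 and 6.57, 3.16 and 4.20 TPM in the clones. Of the genes higher in all 3 clones 9 were X-linked, and of the lower genes 7.

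The same clones and parental cells after 48 h of Xist expression were used for a second reading of these genes. These libraries share the clones with the uninduced ones and thus any property of a clone, and X-linked genes are repressed by Xist in them. In the induced libraries edgeR called 0 genes higher and 0 lower past the same threshold among 14143 tested, with 3668 at an unadjusted p under 0.05 and a lowest adjusted p of 0.0174. Of the 171 genes higher in all 3 uninduced clones, 167 were tested there, 167 had a positive log2 fold change and 147 had all clones above all wild-type samples in TPM, which 17.2% of the 10533 genes that meet the level and chromosome limits and were tested showed. Of the 45 lower genes 43 were tested, 41 had a negative log2 fold change and 33 had all clones below all wild-type samples, against 10.9% of those genes. The lower genes with a positive log2 fold change after induction were Tmem54 (chromosome 4, log2 fold change 0.07) and Kctd12b (chromosome X, log2 fold change 1.07). Of the 10533 genes, 47.7% had a positive log2 fold change in the induced libraries. Outside the X chromosome the same-side counts were 160 of 160 and 36 of 37. The median log2 fold change was 1.85 in uninduced and 1.64 in induced libraries for the higher, and −1.76 and −2.15 for the lower genes. Tbx3 had 2.46 and 0.84, Tex11 had 2.32 and 4.13, Hmga2 had 2.63 and 3.55, and Dnmt3b had −1.54 and −0.96, as uninduced and induced log2 fold changes. The median of the naive list was 0.54 in uninduced and −0.06 in induced libraries, and that of the primed list −1.45 and −1.09.

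**Figure D5:**
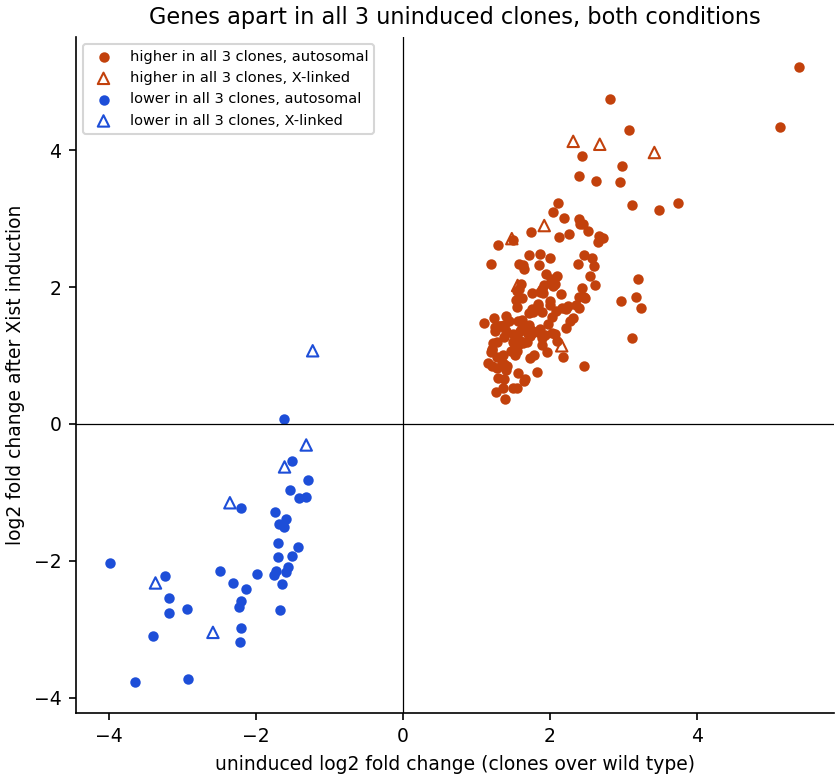
Log2 fold change between ΔCdk8 and wild-type samples in uninduced libraries (x axis) and after Xist induction (y axis) for the genes higher (orange) or lower (blue) in all 3 uninduced clones that were tested in both, with X-linked genes as open triangles. All 167 higher genes lie above 0 after induction, and 41 of 43 lower genes lie below 0.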

How the data were processed

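Strand-specific poly(A) RNA-seq (TruSeq Stranded mRNA) was performed in 12 ESC libraries, of which the 6 uninduced ones were compared here. The authors mapped untrimmed reads with CLC Genomics Workbench to mouse GRCm38 and deposited 1 table per library with 25759 genes. The deposited read counts per gene (total, unique, exon and intron reads) are raw counts, and the deposited TPM values are the authors' exon reads per exon length scaled to the same total in each library. Further columns of these tables were not used here.

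Samples were grouped by their labels. The labels do not state whether wild-type samples 1, 2 and 3 were separate cultures, so p-values measure the spread between these samples, which may be technical. Total gene reads were tested with edgeR 4.0.16 in R 4.3.3 (quasi-likelihood, TMM normalisation, filterByExpr at its minimum count of 10 and total of 15). Benjamini-Hochberg adjustment ran over 14646 genes, and the threshold was an adjusted p under 0.01 together with more than 2-fold difference. Standard errors were computed as the size of the log2 fold change divided by the root of F. DESeq2 1.42.0 and limma 3.58.1 were alternatives, with other scalings, filters, read columns and samples, and the scripts were tested on simulated data. Log2 ratios of a library were taken to the wild-type mean of TMM-scaled gene reads.

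Gene lists were described by counts at an unadjusted p under 0.05 and by their median, with no list test. Leaving out each library for a list, and the MHC class II group, were added after the data were seen. The members and lists were chosen with earlier results of these data known. Named genes are the kinase module, the 15 genes per direction with the largest smallest-clone shift, list members apart in all 3 clones, the lowest p in lists with none, and the 5 lowest p per direction over all genes. Of the last, Rnf17, Fam213a, Reep4, Mme, Erdr1 and Gm44973 are not described. Other members were named as examples after their values were seen. Promoter windows came from RefSeq (GRCm38.p6), in which 123 of the 171 higher and 33 of the 45 lower genes had an entry. Figures were drawn with matplotlib 3.10.9 under Python 3.11.15.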

Additional observations from a re-analysis of the deposited data

Results flagged for a closer look

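Kctd12b, an X-linked gene, differed in opposite directions before and after Xist induction. In uninduced libraries it was at 3.07, 2.34 and 5.45 TPM in wild-type samples 1, 2 and 3 and at 1.604, 1.79 and 1.79 TPM in clones 8, 11 and 15, with a log2 fold change of −1.23. After induction it was at 0.350, 0.116 and 0.535 TPM in wild type and at 0.426, 0.932 and 1.05 TPM in the clones, with a log2 fold change of 1.07, and the groups overlapped. The difference between the conditions was not tested.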

How the results depend on the processing

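No gene passed the threshold in edgeR with robust estimation, the newer estimator (chosen after seeing the data), other scalings, filters or read columns, nor in limma-voom, whereas DESeq2 gave 264 higher and 122 lower genes and all 12 libraries in 1 fit gave 3 and 2. With each library left out in turn the counts were 0 to 1 higher and 0 to 2 lower. At an adjusted p under 0.05 with no fold minimum, 305 higher and 113 lower genes passed in edgeR without wild-type sample 1, 847 and 899 without clone 11 and 109 and 49 in the fit of all 12 libraries, against 0 and 0. The cause of these differences was not tested. The number of genes higher in all 3 clones was 400 at 1.5-fold, 47 at 3-fold, 71 with a mean of at least 5 TPM and 293 with no minimum, and 124 to 598 with each library left out. The number lower was 133, 15, 28 and 77 in that order, 70 from gene reads alone and 32 to 211 with each library left out. Other scalings, the kept chromosomes, a left-out X chromosome, TPM alone, unique or exon reads and centring on chromosome medians left both counts within 1.5 times, from 162 to 243 higher and from 38 to 63 lower. A left-out library gave the lowest counts without wild-type sample 3 and the highest without clone 11. With a clone left out the rule has a condition less, so the counts could not fall.

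Of the named genes, 57 passed the threshold in DESeq2, 4 in the fit of all libraries and 2 without clone 11. Direction turned for Cdk8 (−0.39, exon reads) and for 3 genes when a library was left out, which gave Ccnc −0.015 (without clone 11) to 0.23, Med13 −0.11 to 0.085 (without wild-type sample 1) and H2-DMa −0.10 (without wild-type sample 1; −0.10 also without clone 15) to 0.42. The legacy estimator is edgeR's default in this version and equals the main setting. No paired analysis was possible because clones 8, 11 and 15 and wild-type samples 1, 2 and 3 carry different numbers. Levels under 1 TPM rest on few reads, and how well differences there can be detected at this depth was not tested.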
